A study of Homo sapiens with 11 samples.

Results

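The 10 genes studied here encode sensors of foreign or misplaced nucleic acid, the adaptors that these signal through and interferon regulatory factors (IRFs), and were followed in nickel-treated human cells. They were taken by symbol from a list that was set with earlier results of these data known. The genes are DDX58, IFIH1, DHX58, TLR3, EIF2AK2, MAVS, TMEM173, IRF1, IRF3 and IRF7. All 10 were among the 28252 genes of the RNA-Seq files of RT4 cells and among the 14502 genes tested there, and 9 of the 10 had a value among the 26237 promoters of the H3K4me3 ChIP-Seq files of BEAS-2B cells. The promoter of IRF7 was not analysed here.

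RT4 is a line from a non-invasive human bladder cancer, and BEAS-2B is an immortalized line of human bronchial epithelial cells. Untreated (UT) cells had no nickel, whereas nickel-exposed (Ni-E) cells were grown with NiCl2, a soluble nickel salt, at 100 μM over 6 weeks. Nickel-washed-out (Ni-W) RT4 cells were exposed in the same way and then kept for 2 weeks in medium free of nickel. Ni-W BEAS-2B cells were 1 population grown from a single colony of exposed cells and kept free of nickel for more than 6 months, although the sample labels also name 2 weeks for both lines. RNA-Seq of RT4 cells had 2 libraries per condition, of which the titles mark the second as Dup, and ChIP-Seq of BEAS-2B cells had 1 library per condition. Since the assays come from different lines and the Ni-W cells from different intervals after exposure, levels of RNA and of H3K4me3 were not set against each other within a cell.

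RIG-I (DDX58), MDA5 (IFIH1) and LGP2 (DHX58) are helicases that bind double-stranded RNA in the cytoplasm. RIG-I and MDA5 then bind MAVS on mitochondria, which leads to phosphorylation of IRF3 and IRF7 and to transcription of interferon genes. LGP2 lacks the signalling domains and modulates the other helicases, TLR3 senses double-stranded RNA in endosomes, PKR (EIF2AK2) binds it and phosphorylates eIF2α, and STING (TMEM173) relays the signal of cGAS, the sensor of cytoplasmic DNA. Secreted interferons act through a complex named ISGF3, of which IRF9 is the DNA-binding subunit, and many genes of the pathway, DDX58, IFIH1 and IRF7 among them, are themselves induced by interferon.

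ISGF3 and the IRFs bind repeats of the letters GAAA, and the palindrome TTCNNNGAA (the GAS element) mediates responses to interferon-γ. Promoters from RefSeq on GRCh38.p14, 250 bases before to 50 bases after the start of transcription, were matched for 6 of the 10 genes, with DDX58 under its current symbol RIGI. DHX58, TMEM173, IRF3 and IRF7 were not analysed here for sequence. Both strands were searched for the core of the interferon-stimulated response element (ISRE) written as GAAANNGAA, for GAS, and for ACGTG, the core of sites bound by the hypoxia-inducible factors, which nickel is known to stabilize. Of 35116 promoters of the same length, 8.107% held the ISRE core, 7.657% held GAS and 21.41% held ACGTG. The ISRE core and GAS both end in GAA on 1 strand, so that matches to them can overlap.

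Printed below are the promoters of 3 RNA sensors, since DDX58 and IFIH1 had the highest fold changes of the 5 sensor genes after washout and TLR3 has both kinds of element. Each runs from 5′ to 3′ on the strand of the gene and ends 30 bases past the start of transcription. The letters in capitals are matches to the ISRE core or to GAS. DDX58 lies on the minus strand at chr9:32526167-32526446, IFIH1 on the minus strand at chr2:162318655-162318934 and TLR3 on the plus strand at chr4:186068906-186069185.
DDX58: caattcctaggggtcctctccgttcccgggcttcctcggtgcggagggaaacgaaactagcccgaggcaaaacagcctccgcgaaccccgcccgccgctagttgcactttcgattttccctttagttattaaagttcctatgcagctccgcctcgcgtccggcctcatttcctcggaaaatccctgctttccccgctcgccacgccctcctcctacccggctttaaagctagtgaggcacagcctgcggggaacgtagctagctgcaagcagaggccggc
IFIH1: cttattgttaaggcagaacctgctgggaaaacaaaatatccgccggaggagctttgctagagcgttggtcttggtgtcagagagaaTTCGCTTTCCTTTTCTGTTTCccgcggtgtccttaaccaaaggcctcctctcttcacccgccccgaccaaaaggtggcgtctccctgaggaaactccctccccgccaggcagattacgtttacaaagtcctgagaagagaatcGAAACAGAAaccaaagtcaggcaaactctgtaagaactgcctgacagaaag
TLR3: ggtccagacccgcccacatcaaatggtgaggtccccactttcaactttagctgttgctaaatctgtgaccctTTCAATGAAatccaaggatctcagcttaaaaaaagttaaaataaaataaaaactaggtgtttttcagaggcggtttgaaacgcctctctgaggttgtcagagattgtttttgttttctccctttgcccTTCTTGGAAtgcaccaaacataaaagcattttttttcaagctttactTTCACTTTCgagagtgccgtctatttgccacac
IFIH1 held 4 matches to the ISRE core, of which the 3 that begin 164, 158 and 152 bases before the start overlap in 1 run and the other begins 21 bases before it. TLR3 held the ISRE core 3 bases before the start and GAS 178 and 50 bases before it. The window of DDX58 held none of the 3 motifs as they are written here, and neither did that of MAVS. This says only that these letters are not in these windows. The DDX58 window does hold the letters gaaacgaaa, a repeat of GAAA with closer spacing than the ISRE core written here.

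Shorter stretches are shown for EIF2AK2 and IRF1 because each holds a single match, in capitals, to the ISRE core and to GAS, respectively. EIF2AK2 lies on the minus strand, with its stretch at chr2:37156951-37157050, and IRF1 on the minus strand, with its stretch at chr5:132490814-132490953.
EIF2AK2: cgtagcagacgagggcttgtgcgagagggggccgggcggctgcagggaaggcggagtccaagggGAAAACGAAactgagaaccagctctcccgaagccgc
IRF1: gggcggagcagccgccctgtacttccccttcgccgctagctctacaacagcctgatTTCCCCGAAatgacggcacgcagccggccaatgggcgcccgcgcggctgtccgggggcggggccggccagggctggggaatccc
The match in EIF2AK2 begins 6 bases before the start and that in IRF1 begins 124 bases before it. ACGTG was found in EIF2AK2, on both strands 181 and 180 bases before the start, and in IRF1, from base 30 of the transcribed part. A match is a description of the sequence, and no binding was measured.

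The 6 RT4 libraries had totals of 18065667 and 25721265 estimated counts in UT cells, 18280556 and 27736454 in Ni-E cells, and 17075833 and 26543400 in Ni-W cells. The Dup libraries stood apart from the first libraries in every condition. For transcripts over 8000 nt the median log2 difference of Dup minus first was -0.40 in UT, -0.38 in Ni-E and -0.68 in Ni-W cells, and for transcripts under 1000 nt it was 0.53, 0.38 and 0.74. Libraries of the same kind also deviated together from the means of their conditions. For this reason the calls on the 10 genes are given from the fit without a replicate block and from the fit with the first and Dup libraries as blocks. Log2 fold changes and SEs are from the fit with the block where this is stated, and otherwise from the fit without it. A gene was called if it changed at least 1.5-fold with an edgeR quasi-likelihood p below 0.05 after Benjamini-Hochberg adjustment over all genes tested (P_adj). In bulk RNA, a change in the number of cells that use a gene and a change in its RNA per cell cannot be told apart.

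With the block, 7 of the 10 genes were called as higher in Ni-W than in UT cells (5.79% of all genes tested) and 4 of these 7 also in Ni-E cells (7.64%), and none was called as lower. DDX58 was called as higher in both Ni-E and Ni-W cells by edgeR without a block. IFIH1, TLR3 and IRF7 were called as well in both conditions with the block, and DHX58, IRF1 and EIF2AK2 in Ni-W cells. MAVS, TMEM173 and IRF3, which carry the signal onwards from the sensors, were called in no comparison in either fit. The plot of levels by library shows these patterns.

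**Figure D1:**
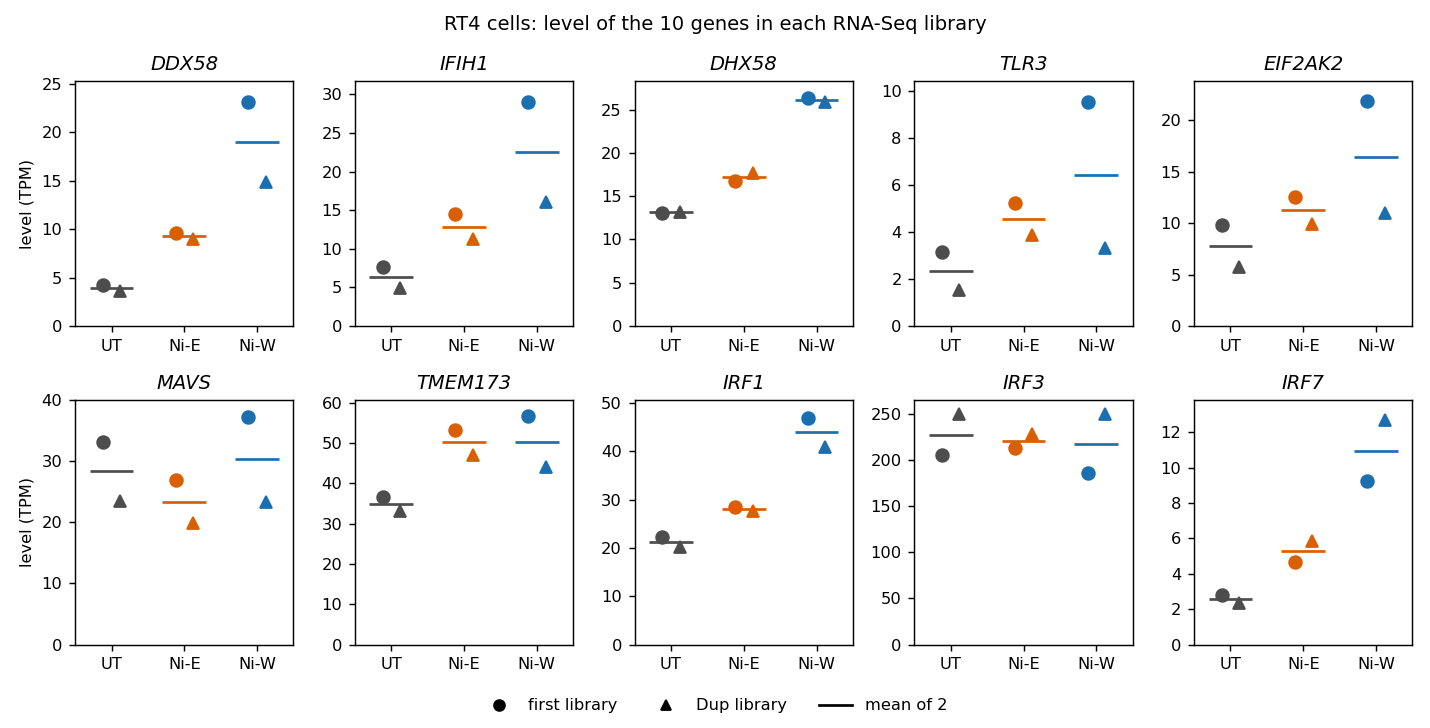
Level of each gene in TPM (linear axis from 0) in UT, Ni-E and Ni-W RT4 cells, with circles for first libraries, triangles for Dup libraries and a line at the mean of the 2. For DDX58, IFIH1, DHX58, IRF1 and IRF7 both Ni-W libraries lie above both Ni-E libraries, which lie above both UT libraries, whereas the IRF3 groups overlap.

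DDX58, which encodes RIG-I, was at 4.22 and 3.66 TPM in UT cells, at 9.60 and 8.96 TPM in Ni-E cells and at 23.1 and 14.9 TPM in Ni-W cells. TPM is a level per transcript length, scaled to the same total in every library, with the first library given before the Dup library here and throughout. The 3 conditions did not overlap, and Ni-W cells had the highest values. DDX58 rose by 1.23 ± 0.19 (log2, SE, n = 2 per condition, P_adj = 0.039) in Ni-E and by 2.19 ± 0.19 (P_adj = 0.016) in Ni-W cells, a 2.34-fold and a 4.57-fold difference. Between Ni-E and Ni-W cells it differed by 0.97 ± 0.18, with P_adj = 0.27 without the block and 0.0024 with it. Limma on log2 TPM, without a block, called DDX58 in neither comparison with UT. Its P_adj for Ni-E against UT was 0.20 with log2(TPM + 1) and 0.17 with log2(TPM + 0.1). With only the 2 groups compared, DDX58 was not called in Ni-W against UT cells. When 1 library was left out, the remaining one was taken to vary like those of the other conditions. Both calls against UT were lost without the block when either UT or either Ni-E library was left out, where P_adj was 0.28, 0.28, 0.31 and 0.32 for Ni-E against UT and 0.14, 0.15, 0.11 and 0.11 for Ni-W against UT, whereas the log2 fold changes stayed between 1.20 and 1.26 and between 2.07 and 2.31. With the block DDX58 was called in all 3 comparisons, with P_adj = 0.00020 and 7.0e-06 against UT, and remained called whichever library was left out.

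IFIH1, which encodes MDA5, was at 7.61 and 4.98 TPM in UT, 14.5 and 11.3 TPM in Ni-E, and 29.0 and 16.1 TPM in Ni-W cells. Again the 3 conditions did not overlap, but the Dup library was the lower of each pair. The log2 fold change was 1.04 ± 0.25 in Ni-E (P_adj = 0.12, or 0.00042 with the block) and 1.77 ± 0.25 in Ni-W cells (P_adj = 0.059, or 2.2e-05 with the block). In these edgeR fits IFIH1 was called with the block alone, and there also in Ni-W against Ni-E cells (0.71 ± 0.13, P_adj = 0.0093). Without a block, DESeq2 called it in Ni-E (P_adj = 0.029) and Ni-W cells (P_adj = 3.3e-06), as did edgeR with length offsets (P_adj = 0.039 and 0.014).

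DHX58, which encodes LGP2, was at 13.1 and 13.2 TPM in UT, 16.8 and 17.6 TPM in Ni-E, and 26.3 and 25.9 TPM in Ni-W cells. Its TPM pairs were the closest of the sensors, and the conditions did not overlap. It was called with the block in Ni-W against UT cells (0.94 ± 0.13, P_adj = 0.00079) and not by edgeR without it (P_adj = 0.20). DESeq2 called DHX58 there without a block. In Ni-W against Ni-E cells its fold change of 1.48 with the block lay just under the 1.5-fold limit, and it passed the limit at 1.53-fold without the first Ni-E library and at 1.55-fold without the first Ni-W library.

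TLR3, the endosomal sensor, was at 3.16 and 1.55 TPM in UT, 5.24 and 3.86 TPM in Ni-E, and 9.52 and 3.32 TPM in Ni-W cells. Both nickel-treated conditions lay above UT, but Ni-W overlapped Ni-E as its Dup library was low. With the block TLR3 rose by 1.02 ± 0.23 in Ni-E (P_adj = 0.012) and by 1.31 ± 0.23 in Ni-W cells (P_adj = 0.0043), and without it P_adj was 0.52 and 0.42. The call in Ni-E cells was lost without the second UT library (P_adj = 0.057) or the second Ni-E library (P_adj = 0.063). From Ni-E to Ni-W its log2 ratio in CPM was 0.68 between the first libraries and -0.13 between the Dup libraries.

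EIF2AK2, which encodes PKR, was at 9.84 and 5.69 TPM in UT, 12.5 and 9.92 TPM in Ni-E, and 21.9 and 10.9 TPM in Ni-W cells. The Ni-W libraries lay on both sides of the higher Ni-E library. At 8983 nt its transcript falls in the length class that was lowest in the Dup libraries. It was called in Ni-W against UT cells with the block (0.93 ± 0.14, P_adj = 0.0015), with log2 ratios in CPM of 1.03 between the first and 0.80 between the Dup libraries, and not without it (P_adj = 0.54). In Ni-E cells it stayed just under 1.5-fold with the block (1.47-fold), and passed it without the first Ni-E library (1.69-fold).

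MAVS, the adaptor of RIG-I and MDA5, was at 33.1 and 23.5 TPM in UT, 26.9 and 19.8 TPM in Ni-E, and 37.2 and 23.3 TPM in Ni-W cells. The 3 conditions overlapped in TPM, whereas in CPM both Ni-E libraries lay below both UT libraries, and each Dup library was below its first library in TPM. The log2 differences from UT were -0.27 ± 0.20 in Ni-E (P_adj = 0.80) and 0.04 ± 0.20 in Ni-W cells (P_adj = 1.0), and with transcript lengths as offsets they were -0.44 (P_adj = 0.30, or 0.0095 with the block) and -0.11, under 1.5-fold in each case. TMEM173, which encodes STING, was at 36.6 and 33.0 TPM in UT, 53.2 and 47.1 TPM in Ni-E, and 56.7 and 44.0 TPM in Ni-W cells. Both nickel-treated conditions lay above UT and overlapped each other. Its differences of 0.53 ± 0.11 and 0.50 ± 0.11 had P_adj = 0.0087 and 0.017 with the block, but at 1.44-fold and 1.41-fold they stayed under the limit for a call in both fits. Without the block the difference of TMEM173 in Ni-E cells was 0.53 ± 0.16 (P_adj = 0.23), so that its p did not pass there either.

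IRF1, a factor induced by interferon-γ, was at 22.3 and 20.3 TPM in UT, 28.4 and 27.6 TPM in Ni-E, and 47.0 and 41.0 TPM in Ni-W cells. The 3 conditions did not overlap. It was called with the block in Ni-W against UT (1.01 ± 0.11, P_adj = 0.00020) and in Ni-W against Ni-E cells (0.62 ± 0.11, P_adj = 0.0076), where P_adj without the block was 0.10 and 0.58. DESeq2 without a block called IRF1 in Ni-W against UT cells. IRF7, the factor that amplifies interferon-α production, was at 2.81 and 2.34 TPM in UT, 4.69 and 5.84 TPM in Ni-E, and 9.23 and 12.7 TPM in Ni-W cells. The conditions did not overlap, and in both nickel-treated conditions the Dup library was the higher. With the block IRF7 rose by 1.02 ± 0.25 in Ni-E (P_adj = 0.016), by 2.06 ± 0.24 in Ni-W cells (P_adj = 0.00027) and by 1.04 ± 0.22 from Ni-E to Ni-W (P_adj = 0.018), whereas P_adj without it was 0.34, 0.10 and 0.76. Of these calls that in Ni-E cells was lost without the second UT library (P_adj = 0.48) and that from Ni-E to Ni-W without the second Ni-W library (P_adj = 0.063). Its counts were the lowest of the 10 genes in UT cells, at 49 and 67. Without a block, DESeq2, edgeR with length offsets and edgeR without a filter each called IRF7 in Ni-W against UT cells.

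IRF3, the factor that is activated by phosphorylation rather than by its amount, had the highest level of the 10 genes. It was at 206 and 250 TPM in UT, 213 and 228 TPM in Ni-E, and 186 and 250 TPM in Ni-W cells. The conditions overlapped, and the spread between libraries of 1 condition was larger than any difference between conditions. The log2 difference from UT was -0.07 ± 0.32 in Ni-E and -0.09 ± 0.32 in Ni-W cells, and its sign changed with the library left out. In mean TPM of UT cells the order was IRF3 (228), TMEM173 (34.8), MAVS (28.3), IRF1 (21.3), DHX58 (13.1), EIF2AK2 (7.77), IFIH1 (6.30), DDX58 (3.94), IRF7 (2.58) and TLR3 (2.36). Of the neighbours in this order, TMEM173 and MAVS, EIF2AK2 and IFIH1, and IRF7 and TLR3 overlapped between libraries, and the other neighbours did not. In Ni-W cells DDX58 (19.0) and IFIH1 (22.5) had come above EIF2AK2 (16.4), with all 3 overlapping.

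**Figure D2:**
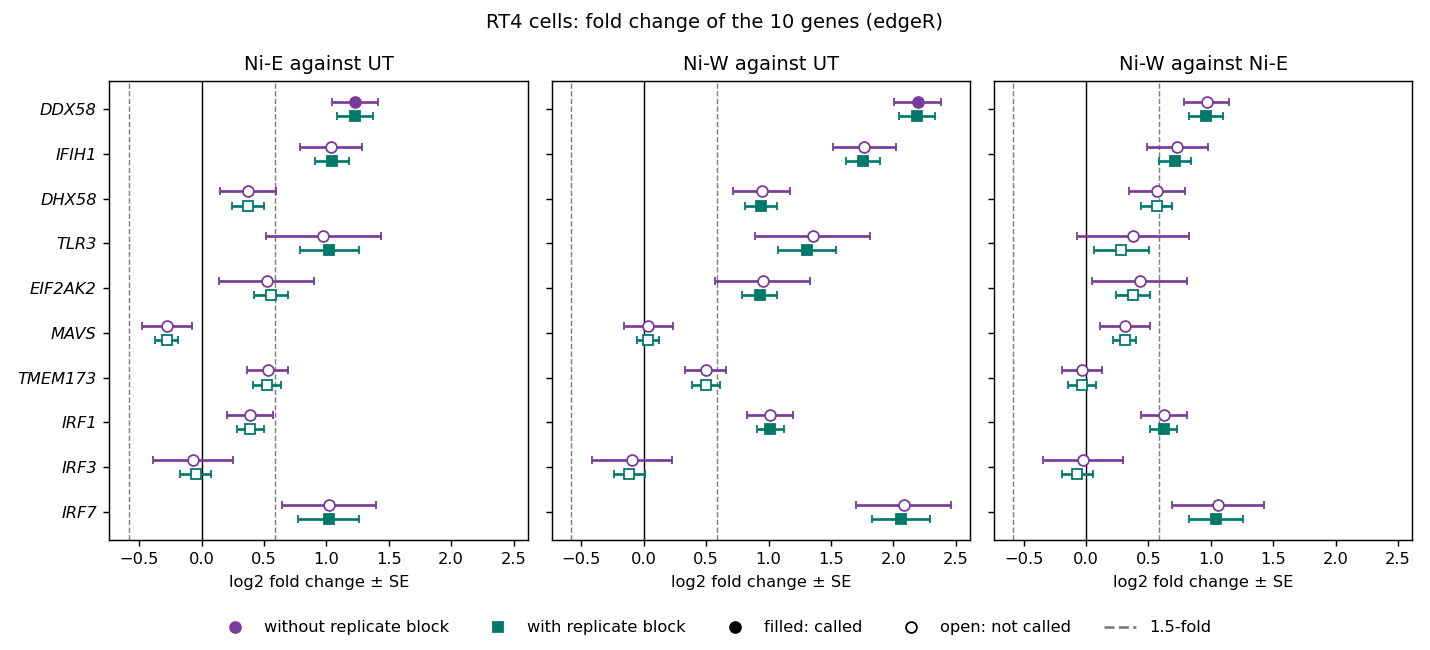
Log2 fold change (± SE) of the 10 genes in Ni-E against UT, Ni-W against UT and Ni-W against Ni-E RT4 cells, without (circles) and with (squares) the replicate block, filled where called, with dashed lines at 1.5-fold. The estimates nearly coincide in both fits, the errors are smaller with the block, and MAVS, TMEM173 and IRF3 are open throughout.

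In Ni-E against UT cells 1 of the 10 genes was called as higher and 0 as lower without the block, where 1.45% of all genes tested were called as higher and 0.71% as lower. With the block 4 were called as higher and 0 as lower, against 7.64% and 5% of all genes. In Ni-W against UT cells the count was 1 without the block (0.503% of all genes higher, 0.0965% lower) and 7 with it (5.79% higher, 2.78% lower). In Ni-W against Ni-E cells edgeR without the block called none of the 10 and none of all genes (0% higher and 0% lower), although 5 of the 10 and 808 of all genes had an unadjusted p under 0.05, and DESeq2 called DDX58 and 139 genes in all. With the block 4 of the 10 were called as higher (2.72% of all genes) and 0 as lower (1.8%). The median log2 fold change of the 10 was 0.53, 0.98 and 0.50 in the 3 comparisons, beside -0.01, 0.00 and 0.02 over all genes tested. In counts scaled to library size (CPM), both libraries lay above both of the other condition for 8 of the 10 in Ni-E against UT, 8 in Ni-W against UT and 6 in Ni-W against Ni-E cells, where 20.3%, 15.1% and 12.7% of all genes did so. Both lay below for 1 of the 10, MAVS, in Ni-E against UT, and for 0 in each of the other comparisons, where 19.3%, 14.1% and 12.7% of all genes did so. The comparisons share libraries, with UT common to the first 2 of them, and are not independent of each other. Since the 10 genes were chosen with earlier results of these data known, their counts beside those of all genes are descriptions and not a test.

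Across the 6 libraries, the log2 CPM of IFIH1 (r = 0.98), IRF1 (0.95), IRF7 (0.91), DHX58 (0.90), TMEM173 (0.87), TLR3 (0.81) and EIF2AK2 (0.77) followed that of DDX58, while MAVS (0.04) and IRF3 (-0.22) did not. Among 11131 other genes with a mean of at least 5 CPM, the 5 most like DDX58 were DRAM1, CBX5, IFIT2, TFEB and CXCL1, with Pearson's r between 0.989 and 0.997. IFIT2 is an interferon-stimulated gene and was called in Ni-E (log2 fold change 1.42) and Ni-W cells (2.30), whereas DRAM1 (0.71 and 1.24), CBX5 (0.39 and 0.69), TFEB (0.87 and 1.5) and CXCL1 (0.93 and 1.68) were not called without the block. These correlations describe 6 points in 3 conditions that share their libraries.

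Other genes of the pathway were followed in lists by role. These lists too were chosen with earlier results of these data known. Their counts of calls are to be read beside the shares of all genes given above for each comparison and fit. Of 12 other sensors, 9 were tested and none was called without the block. With it, IFI16 and AIM2, which bind DNA, and DDX60, a helicase that aids RIG-I, rose in both Ni-E and Ni-W cells, while TLR7, a sensor of single-stranded RNA, fell in both. AIM2 was at 12.5 and 15.2 TPM in UT, 29.0 and 33.1 TPM in Ni-E, and 36.9 and 40.1 TPM in Ni-W cells, and IFI16 went from 13.3 and 14.7 TPM in UT to 33.3 and 42.1 TPM in Ni-E and 42.2 and 32.8 TPM in Ni-W cells. DDX60 was at 2.5 and 0.89 TPM in UT and at 25.2 and 6.58 TPM in Ni-W cells, a log2 difference of 3.14 ± 0.66 (P_adj = 0.14, or 1.7e-05 with the block). From Ni-E to Ni-W both DDX60 and TLR7 rose with the block. The cytoplasmic DNA sensor CGAS was at 14.1 and 10.6 TPM in UT and 16.9 and 11.3 TPM in Ni-W cells and was not called. DHX9, the most abundant of the list with a mean of 128 TPM, was not called either.

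Among 20 adaptors and kinases, all tested, none was called without the block and the median log2 fold change was 0.02 in Ni-E and 0.14 in Ni-W against UT cells. With the block ZC3HAV1, a cofactor of RIG-I, rose in both conditions, IKBKE, a kinase of IRF3 and IRF7, rose in Ni-W cells and TBKBP1, an adaptor of TBK1, fell in Ni-E cells. TBK1 itself, the main kinase of IRF3, was at 36.6 and 36.1 TPM in UT, 31.1 and 37.4 TPM in Ni-E, and 45.5 and 36.2 TPM in Ni-W cells, and was not called. TRIM25, the ligase that ubiquitinates RIG-I, rose from Ni-E to Ni-W with the block (0.75 ± 0.10, P_adj = 0.0018). MYD88, the adaptor of most Toll-like receptors, was the most abundant, with a mean of 84.7 TPM.

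Of 11 negative regulators, 10 were tested, and TNFAIP3, which encodes the NF-κB inhibitor A20, was the only one called, in both conditions and with the block alone. It was at 8.79 and 5.36 TPM in UT, 29.1 and 19.3 TPM in Ni-E, and 23.1 and 11.7 TPM in Ni-W cells. PCBP2, which directs MAVS to degradation, was the most abundant at a mean of 312 TPM and was not called. RNF5 was listed at 0.11 TPM in 1 UT library and at 0 in the other 5 libraries.

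IRF9, the DNA-binding subunit of ISGF3, was the only 1 of 9 further IRF genes and IRF-binding factors (7 tested) to be called, and only with the block. It was at 25.2 and 35.1 TPM in UT, 89.8 and 101 TPM in Ni-E, and 157 and 185 TPM in Ni-W cells, and the conditions did not overlap. Its log2 fold change was 1.62 ± 0.34 in Ni-E (P_adj = 0.094, or 1.2e-05 with the block) and 2.45 ± 0.35 in Ni-W cells (P_adj = 0.060, or 1.8e-06 with the block), and it rose from Ni-E to Ni-W with the block (P_adj = 0.0037). IRF4 and IRF8, factors of blood cells, were listed at 0 in all 6 libraries.

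Of 14 enzymes and kinases that bind double-stranded RNA or phosphorylate eIF2α, OASL, which enhances RIG-I signalling, was called in both conditions without the block. It was at 11.7 and 14.9 TPM in UT, 55.3 and 61.4 TPM in Ni-E, and 110 and 136 TPM in Ni-W cells, with log2 fold changes of 2.12 ± 0.34 (P_adj = 0.046) and 3.18 ± 0.36 (P_adj = 0.033). OAS2 and OAS3, which make 2′-5′ oligoadenylates, were called as well in both conditions with the block, and OAS1 and ADAR, which edits double-stranded RNA, in Ni-W cells. OASL, OAS2 and OAS3 rose from Ni-E to Ni-W with the block. The other eIF2α kinases EIF2AK1, EIF2AK3 and EIF2AK4, which answer to haem, unfolded protein and amino acid supply, were not called.

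In the NF-κB list of 9, the inhibitor NFKBIA was called in Ni-E cells and NFKBIZ in both conditions, with the block alone. NFKBIA, the most abundant, was at 642 and 620 TPM in UT, 1051 and 1042 TPM in Ni-E, and 892 and 798 TPM in Ni-W cells. The subunit RELA was at 95.5 and 84.5 TPM in UT and 99.1 and 83.9 TPM in Ni-W cells.

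Of 9 interferon genes none reached the filter for testing, and 6 of them (IFNA1, IFNA2, IFNK, IFNE, IFNG and IFNL2) were listed at 0 in all 6 libraries. IFNL1, the most abundant, was listed at 0 in both UT libraries, at 0.51 and 0.30 TPM in Ni-E, and at 0.79 and 0.61 TPM in Ni-W cells. IFNB1 was listed at 0.18 TPM in 1 Ni-E and 1 Ni-W library and at 0 in the others. IFNL3 was listed at 0.45 TPM in 1 UT library, at 0.14 TPM in 1 Ni-W library and at 0 in the others, so that interferon RNA was also listed without nickel. No fold change was computed for these genes. IFNL2 and IFNL3 are near-identical copies, between which reads may be divided with uncertainty.

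Of 24 target genes of the IRFs and of ISGF3, 23 were tested. Without the block 12 rose in Ni-E against UT cells, beside 1.45% of all genes tested, and 12 in Ni-W against UT cells, beside 0.503%. These were IFIT1, IFIT2, IFIT3, MX1, RSAD2, IFI6, IFI27, IFI44, IFI44L, XAF1, BST2 and CXCL10 in both comparisons. With the block 18 and 21 of the 23 rose, and 18 rose from Ni-E to Ni-W cells, beside 7.64%, 5.79% and 2.72% of all genes tested. IFI44L was at 0.16 and 0.07 TPM in UT, 5.87 and 5.63 TPM in Ni-E, and 15.7 and 11.1 TPM in Ni-W cells, with log2 fold changes of 5.73 ± 0.34 and 6.89 ± 0.35. IFI27 was at 3.74 and 1.79 TPM in UT, 118 and 129 TPM in Ni-E, and 137 and 194 TPM in Ni-W cells. IFI6, an inhibitor of apoptosis, was at 10.6 and 14.0 TPM in UT, 204 and 219 TPM in Ni-E, and 347 and 349 TPM in Ni-W cells.

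CXCL10, a chemokine that attracts T cells, was at 5.72 and 4.52 TPM in UT, 67.3 and 82.9 TPM in Ni-E, and 79.5 and 70.6 TPM in Ni-W cells, so that the nickel-treated conditions overlapped. IFIT1, which binds viral RNA, was at 0.71 and 0.94 TPM in UT, 11.5 and 11.5 TPM in Ni-E, and 29.6 and 26.5 TPM in Ni-W cells. ISG15, a ubiquitin-like modifier and the most abundant of the list, was at 48.5 and 62.8 TPM in UT, 154 and 217 TPM in Ni-E, and 327 and 531 TPM in Ni-W cells, and was called with the block alone. PSMB9 was listed at 0 in every library. The median log2 fold change of the tested targets was 1.90 in Ni-E and 2.92 in Ni-W against UT cells, and that of the 10 sensors, adaptors and IRFs was 0.53 and 0.98.

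**Figure D3:**
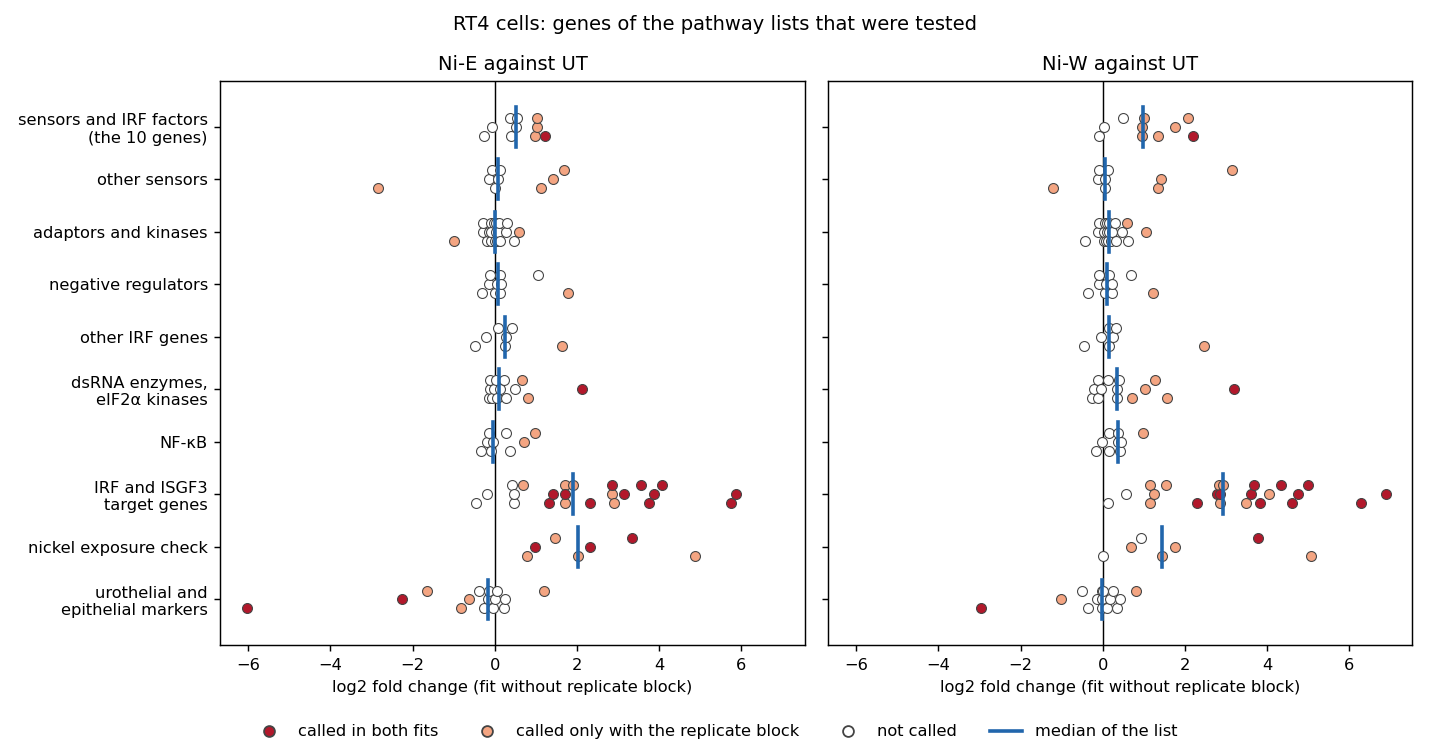
Log2 fold change of each tested gene, by list, in Ni-E (left) and Ni-W (right) against UT RT4 cells, from the fit without the replicate block. Dark points were called in both fits, light points with the block only and open points in neither, and vertical bars mark the median of each list, which is highest for the IRF and ISGF3 targets in Ni-W cells.

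Genes that answer to nickel were measured as a check of the conditions. ADM, a target of the hypoxia-inducible factors, was at 61.9 and 64.6 TPM in UT, 299 and 333 TPM in Ni-E, and 198 and 238 TPM in Ni-W cells, and was called in Ni-E cells (2.30 ± 0.29, P_adj = 0.027). EGLN3, a prolyl hydroxylase that the same factors induce, was called in Ni-E cells (0.98 ± 0.15, P_adj = 0.040). MT2A, a metallothionein with close paralogs that can share its reads, was called in Ni-E (3.33 ± 0.38) and Ni-W cells (3.78 ± 0.38). With the block 7 of 7 tested genes of this list rose in Ni-E cells, 5 of 7 (NDRG1, EGLN3, ADM, MT2A and MT1X) were higher in Ni-W than in UT cells, and 2, CA9 and NDRG1, fell from Ni-E to Ni-W, in the comparison in which 4 of the sensors and IRFs rose. NDRG1 was the most abundant, with a mean of 383 TPM.

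RT4 cells expressed epithelial markers, with 15 of 15 tested and KRT7 the most abundant at a mean of 5348 TPM. The summed level of these markers was 13651 and 14900 TPM in UT, 14418 and 14625 TPM in Ni-E, and 14263 and 17206 TPM in Ni-W cells. Among them UPK1A, a protein of the urothelial surface, was called as lower in Ni-E cells (-2.27 ± 0.33) and KRT20, a keratin of differentiated urothelium, in Ni-E (-6.03 ± 0.41) and Ni-W cells (-2.97 ± 0.32). With the block 5 of the 15 fell in Ni-E cells (UPK1A, UPK1B, UPK2, UPK3A and KRT20) and 1 rose (KRT5, a keratin of basal cells), and in Ni-W against UT cells 2 fell (UPK1A and KRT20) and 1 rose (KRT5). The same 5 genes that fell in Ni-E cells rose from Ni-E to Ni-W with the block, in the comparison in which 4 of the 10 sensors, adaptors and IRFs rose. UPK2, for example, was at 285 and 402 TPM in UT, 96.2 and 128 TPM in Ni-E, and 222 and 328 TPM in Ni-W cells. The part of these markers in the results on the 10 genes was not tested. Since some sensors and IRFs are abundant in immune cells, 9 immune markers were summed, at 5.75 and 4.03 TPM in UT, 6.50 and 5.25 TPM in Ni-E, and 9.99 and 8.31 TPM in Ni-W cells. CD3E and MS4A1 were listed at 0 in all libraries and PTPRC was at most 0.04 TPM. Nearly all of the sum was ITGAM, the only 1 of the 9 tested, at a mean of 6.21 TPM, which rose in Ni-W cells with the block (P_adj = 0.0014). The 7 stromal and endothelial markers summed to between 1.44 and 2.75 TPM, with VWF, which fell in Ni-E cells with the block, the most abundant at a mean of 1.13 TPM and COL1A2 and THY1 listed at 0.

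In BEAS-2B cells the H3K4me3 level of 9 of the 10 genes, excluding IRF7, was measured at the promoter, 2 kb to each side of the start, in RPKM (reads scaled to promoter length and library depth). H3K4me3 is a histone mark of active promoters. The libraries had 28385725 reads in UT, 37493949 in Ni-E and 29933551 in Ni-W cells, as recovered from the steps of the RPKM values. With 1 library per condition there is no test, and the 95% intervals below come from read counts and cover counting error only. Of all reads, 37.6% in UT, 36.0% in Ni-E and 22.9% in Ni-W cells fell in promoters. The median promoter was at 1.57, 1.39 and 1.12 RPKM, and ratios were taken after division by these medians unless stated otherwise. Among promoters with at least 1 RPKM in either library, the median log2 ratio of Ni-W to UT was -0.81 unscaled, -0.32 after median scaling and -0.07 after quantile normalization, so that each ratio in Ni-W cells is to be read against these shifts. The Ni-W cells were 1 population from a single colony, so that nickel, the colony and the time in culture cannot be told apart in comparisons with them. The input libraries were not analysed here.

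The highest promoters were those of IRF3, IRF1 and MAVS, at 15.1, 12.1 and 11.8 RPKM in UT cells, and the lowest those of TMEM173, DHX58 and TLR3, at 3.27, 2.51 and 2.42 RPKM. DDX58 (6.02), EIF2AK2 (6.03) and IFIH1 (5.55) lay between these groups with overlapping intervals. All 9 were above the median promoter. Of 15 urothelial and epithelial markers 7 were above the median promoter in UT cells, with KRT8, a keratin of simple epithelia, the highest at 7.33 RPKM. KRT5, KRT19, CDH1 and the 4 uroplakins were below the median and KRT20 was listed at 0. Of 9 immune markers 1 was above it, CD14 at 2.06 RPKM, and of 7 stromal and endothelial markers 3 were, with COL1A1 the highest at 8.74 RPKM, so that these promoters did not set epithelial apart from stromal markers.

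In Ni-E against UT cells none of the 9 passed 1.5-fold, where 0.847% of all promoters were past it as higher and 0.567% as lower. The median ratio was 1.04 for the 9 and 1.08 for all promoters. The lowest ratio was that of TMEM173 (0.858, 0.743 to 0.991), which was at 3.27 RPKM in UT and 2.48 in Ni-E cells, and the highest that of TLR3 (1.27, 1.09 to 1.48). In Ni-W against UT cells 0 were past 1.5-fold as higher (4.36% of all promoters) and 3 as lower (18.4%), namely DDX58, MAVS and IRF1. The balance over all promoters depended on the scaling, with 8.06% higher and 5.28% lower after quantile normalization, 8.83% and 2.87% with the median of promoters of at least 3 RPKM, and 1.86% and 71.2% without scaling. The median ratio was 0.78 for the 9 and 0.80 for all promoters. In Ni-W against Ni-E cells the same genes and IRF3 made 4 lower promoters (30.5% of all) and 0 were higher (4.04%). After quantile normalization none of the 9 was past 1.5-fold there, beside 8.03% of all promoters as higher and 5.81% as lower. All 3 libraries enter 2 of these comparisons each.

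The promoter of DDX58 was at 6.02 RPKM (95% interval 5.58 to 6.48) in UT, 5.53 (5.16 to 5.92) in Ni-E and 2.26 (2.01 to 2.55) in Ni-W cells. This unscaled level in Ni-W cells lay below the intervals of the other 2, as it did for each of the other promoters of this set. The scaled ratio of Ni-W to UT was 0.527 (0.458 to 0.607). Without scaling it was 0.376, where 94.5% of all promoters with at least 1 RPKM in either library were below 1. After quantile normalization the log2 ratio was -0.63, where 56.7% of these promoters were below 1. MAVS went from 11.8 to 5.25 RPKM (ratio 0.621, 0.565 to 0.683), IRF1 from 12.1 to 5.5 RPKM (0.637, 0.580 to 0.699) and IRF3 from 15.1 to 7.23 RPKM (0.671, 0.618 to 0.728). For these 3 promoters the log2 ratio after quantile normalization was -0.44, -0.41 and -0.35, so that DDX58 alone of the 4 stayed past 1.5-fold there.

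IFIH1 was at 5.55 RPKM (5.13 to 6.00) in UT, 5.81 (5.43 to 6.21) in Ni-E and 5.07 (4.68 to 5.49) in Ni-W cells. Its ratio of Ni-W to UT was 1.28 (1.15 to 1.43) after median scaling and 0.914 without scaling, and its log2 ratio was 0.64 after quantile normalization, past 1.5-fold. TLR3 had a ratio of 1.15 (0.967 to 1.37) and was likewise below 1 only without scaling among the scalings tried. EIF2AK2 had a ratio of 0.782 (0.691 to 0.884), near the median of all promoters. DHX58 (0.923, 0.770 to 1.11) and TMEM173 (0.914, 0.779 to 1.07) changed direction after quantile normalization (log2 ratio 0.11 and 0.17). The chromatin dynamic score, the difference of the square roots of the scaled levels, ran from -0.58 for MAVS to 0.25 for IFIH1 in Ni-W against UT cells.

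**Figure D4:**
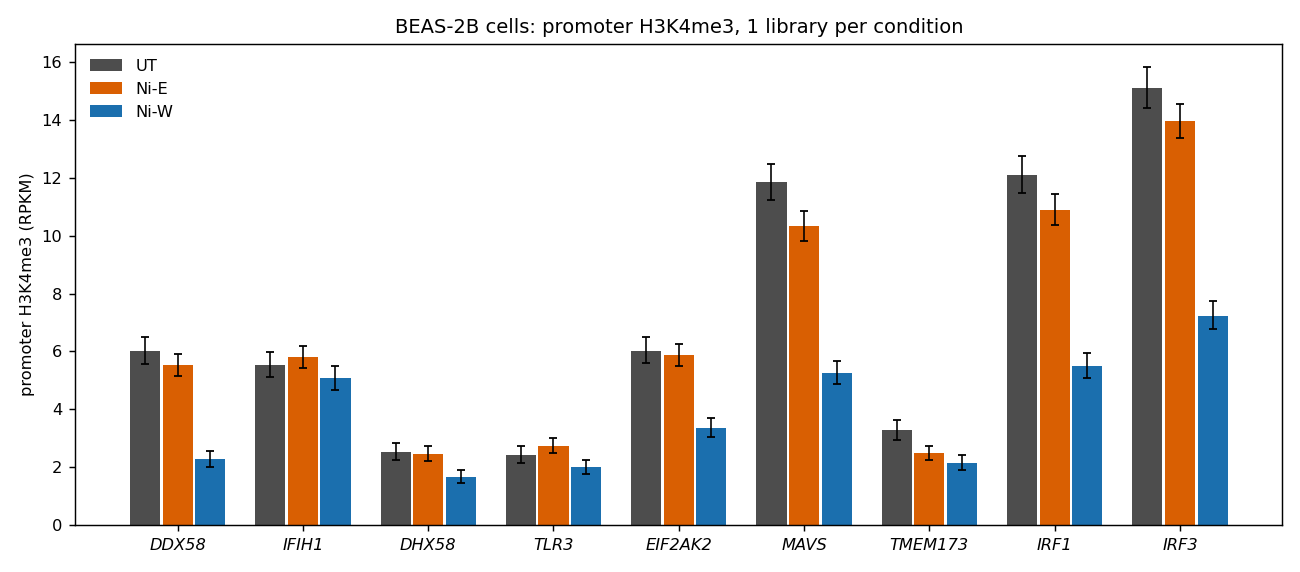
H3K4me3 level (RPKM, not scaled between libraries) at 9 promoters in UT, Ni-E and Ni-W BEAS-2B cells, 1 library each, with 95% intervals of counting error. On this unscaled axis the intervals of UT and Ni-E cells overlap except for TMEM173, MAVS and IRF1, where Ni-E is lower. After median scaling the ratio of Ni-E to UT was 0.858 for TMEM173, 0.986 for MAVS and 1.02 for IRF1. The unscaled Ni-W bar is below the UT bar for all 9 genes, with the ratio nearest to 1 for IFIH1.

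Promoters around these genes were compared to see whether the differences were local. Neighbours were promoters of genes with their centre within 5 Mb, not within 4 kb of the gene, and at least 1 RPKM in either library. Of 74 neighbours of DDX58 on chromosome 9, 63 were past 1.5-fold as lower in Ni-W against UT cells, and their median ratio was 0.526, beside 0.527 for DDX58. In Ni-E against UT cells 0 of 74 were past 1.5-fold as lower. After quantile normalization the median log2 ratio of the neighbours was -0.70, beside -0.63 for DDX58. Of 70 neighbours of MAVS on chromosome 20, 42 were past 1.5-fold as lower, with a median ratio of 0.655, beside 0.621 for MAVS. The 23 neighbours of IFIH1 on chromosome 2 had a median ratio of 1.26, beside 1.28. DDX58, MAVS and IFIH1 thus had ratios close to the medians of their surroundings. The part of the single colony in these regional differences was not tested.

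IRF1 and TLR3 stood apart from theirs. Of 64 neighbours of IRF1 on chromosome 5, 6 were past 1.5-fold as lower, their median ratio was 0.859 and 6.25% had a lower ratio than IRF1. The 25 neighbours of TLR3 on chromosome 4 had a median ratio of 0.822, and 96% of them had a lower ratio than TLR3. IRF3, with 204 neighbours on chromosome 19 at a median ratio of 0.751, was lower than all but 13.2% of them. Neighbouring promoters can share reads or a start, and no test was made.

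**Figure D5:**
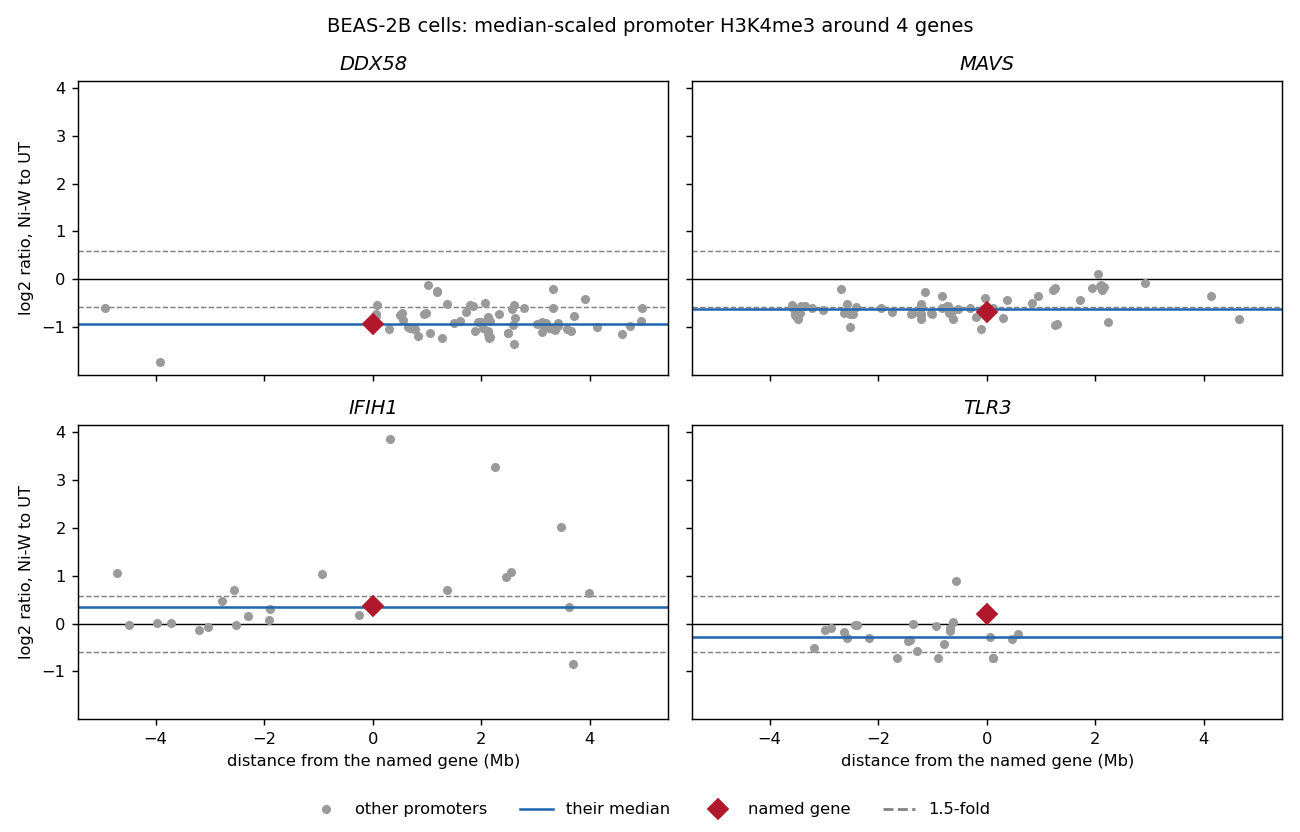
Log2 ratio of median-scaled H3K4me3 in Ni-W to UT BEAS-2B cells (vertical axis) at promoters within 5 Mb of 4 genes (horizontal axis, distance in Mb between gene centres), with the named gene as a diamond, the median of the others as a line and 1.5-fold as dashes. DDX58, MAVS and IFIH1 lie near the line, and TLR3 lies above it.

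Of the target genes named above, the promoters of IFI44L (1.23 RPKM in UT and 1.20 in Ni-W cells), IFIT1 (3.51 and 2.53) and IFI6 (4.45 and 2.27) had scaled ratios of 1.37, 1.01 and 0.716. CXCL10 was at 0.335 and 0.334 RPKM, below the median promoter, and IFI27 was listed at 0 in all 3 libraries. The ratio was 0.595 for OASL, 0.649 for ADM, 0.535 for EGLN3 and 0.933 for MT2A. OASL, ADM and EGLN3 were thus past 1.5-fold as lower after median scaling, where 18.4% of all promoters were. That share depended on the scaling and was 5.28% after quantile normalization.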

How the data were processed

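RNA-Seq of 6 RT4 libraries and H3K4me3 ChIP-Seq of 3 BEAS-2B libraries were used. Gene tables of RSEM hold estimated counts, TPM and FPKM as the authors deposited them. The deposited TPM values are given as levels, and the deposited FPKM values entered no test. The paper's methods name STAR and hg19, and the submitters' processing notes name GRCh38 and hg38, so that the build behind the estimated counts is not settled. No coordinate was taken from these files. ChIP reads had been mapped by BWA (hg38) and redundant copies reduced to 1 before the authors computed the deposited RPKM per promoter. These values are whole multiples of 1 step per library (100% within 0.00051 RPKM), which gave the reads behind each value, and 95% intervals are Wilson intervals for levels and normal intervals of the log ratio of reads for ratios.

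Estimated counts (97.9% whole within 0.001) were rounded for the quasi-likelihood test of edgeR (TMM, filterByExpr, 3 groups, no block). The study describes the 2 RNA samples per condition as biological replicates. The same kind of library, first or Dup, deviated together between conditions (correlation 0.657, 0.764 and 0.689), which is why a fit with the replicate block is given beside it. The pairing comes from the titles and these values. Alternatives were no filter, a minimum of 10 counts in all libraries, RLE size factors, DESeq2, limma on log2(TPM + 1) and log2(TPM + 0.1) for genes with a mean of at least 1 TPM, only the 2 groups compared and each library left out. Length offsets, DESeq2 with the block and the blocked fit without each library were chosen after seeing the data. For ChIP-Seq they were no scaling, quantile normalization, the median of promoters with at least 3 RPKM, and no minimum level.

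The members and lists were chosen with earlier results of these data known. Named were all members, up to 4 called genes per list and comparison with the largest fold change, the most abundant gene of each list (some are not reported here) and the 5 genes most like the called member with the largest change. Genes called only with the block, and others named for their role, were named after their values were seen. Gene positions and promoters are RefSeq's (GRCh38.p14). Scripts were tested on simulated data. Tests ran in R (4.3.3) with limma (3.58.1), edgeR (4.0.16) and DESeq2 (1.42.0), and promoters and plots in Python (3.11.15) with pandas (2.3.3), scipy (1.17.1), matplotlib (3.10.9) and numpy (2.4.6). SEs of edgeR are the log2 fold change divided by the root of its F.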

Additional observations from a re-analysis of the deposited data

How the results depend on the processing

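For the 10 genes, edgeR without the block called 1 in Ni-E against UT, 1 in Ni-W against UT and 0 in Ni-W against Ni-E cells. The replicate block gave 4, 7 and 4, as did DESeq2 with the block and length offsets with the block. DESeq2 without a block gave 2 (DDX58 and IFIH1), 5 (these, DHX58, IRF1 and IRF7) and 1 (DDX58), length offsets gave 2 (DDX58 and IFIH1), 3 (these and IRF7) and 0, no filter gave the same 3 in Ni-W against UT, limma on TPM with either pseudocount gave 0 and 0 against UT, and only the 2 groups compared gave 0 in Ni-W against UT. Leaving out 1 library gave 0 to 1, 0 to 1 and 0 without the block, and 2 to 5, 7 and 3 to 5 with it. Over all genes the calls were 314, 87 and 0. They were 1833, 1243 and 655 with the replicate block, 1429, 964 and 528 with DESeq2 and the block, 1840, 1276 and 738 with length offsets and the block, 730, 442 and 139 with DESeq2, and 685, 308 and 33 with length offsets. No filter gave 193 in Ni-W against UT and 14 in Ni-W against Ni-E, at least 10 counts in every library gave 209 in Ni-E and 54 in Ni-W against UT, and limma gave 170 (log2(TPM + 1)) and 173 (log2(TPM + 0.1)) in Ni-E against UT and, with the smaller pseudocount, 11 in Ni-W against Ni-E. Only the 2 groups compared gave 0 in Ni-W against UT. Leaving out 1 library gave 0 to 320, 0 to 38 and 0 without the block, and 1133 to 2254, 678 to 1904 and 646 to 1075 with it. All 314 and 87 genes called without the block were also called with it.

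Signs changed only for differences that were not called. When 1 library was left out, IRF3 ranged from -0.30 to 0.22 in Ni-E against UT, from -0.55 to 0.26 in Ni-W against UT and from -0.48 to 0.34 in Ni-W against Ni-E, and MAVS from -0.11 to 0.18 in Ni-W against UT. In Ni-W against Ni-E, TLR3 ranged from -0.27 to 0.84, EIF2AK2 from -0.074 to 0.81 and TMEM173 from -0.065 to 0.0034. IRF3 in Ni-E against UT was 0.0021 with length offsets and the block, and MAVS in Ni-W against UT was -0.11 with length offsets and -0.12 with the block as well. The cause was not tested. For H3K4me3, the 3 promoters past 1.5-fold in Ni-W against UT became 7 of 9 without scaling, where 71.2% of all promoters were past it as lower. They became 1 lower (DDX58) and 1 higher (IFIH1) under each of the other 2 scalings. The 4 in Ni-W against Ni-E became 5 without scaling, with EIF2AK2 added, where 64.2% of all promoters were past it as lower. They became 0 after quantile normalization and 0 with the median of promoters with at least 3 RPKM (9.81% of all promoters higher and 2.81% lower). With 2 libraries per condition in RNA-Seq and 1 in ChIP-Seq, the number of libraries limits these results.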

Other observations

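Among the promoters of the pathway lists, 3 that were named after their values were seen had more H3K4me3 in Ni-W than in UT BEAS-2B cells whether or not the libraries were scaled by their medians. The DNA sensor IFI16 was at 5.58 RPKM in UT, 4.91 in Ni-E and 7.41 in Ni-W cells, a scaled ratio of Ni-W to UT of 1.86 (95% interval 1.68 to 2.06) and an unscaled ratio of 1.33. NFKBIZ, an inducible regulator of NF-κB targets, was at 4.02, 3.70 and 4.44 RPKM (1.55, 1.37 to 1.75). CMPK2, a mitochondrial nucleotide kinase next to RSAD2 in the genome, went from 0.326 and 0.393 RPKM to 1.24 RPKM (5.31, 3.71 to 7.62), from well under the median promoter to slightly above it. The promoter of RSAD2 itself was at 0.722, 0.560 and 0.626 RPKM. Its scaled ratio of Ni-W to UT was 1.21 (0.888 to 1.66) and its unscaled ratio 0.867. There is 1 library per condition, and these intervals hold counting error only.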
